A study of Mus musculus with 2 samples.

Results

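A set of 43 genes of the endoplasmic reticulum (ER) was examined, chosen by symbol: chaperones and folding enzymes of the ER lumen, the protein translocation channel and the enzymes attached to it, the ER-associated degradation machinery, and the sensors Ern1 and Atf6 with the transcription factor Xbp1. The set was 43 of 23238 gene symbols. All 43 had reads, and 42 had 50 or more reads in at least 1 library and are described. Near that floor, Dnajb9 was inside it with 129 control reads and 146 UNE-C1 reads, and Ern1 was outside it with 18 and 33 reads. RNA was measured in dendritic cells derived from bone marrow, which present antigen to T cells and were grown here with 20 ng/ml GM-CSF from marrow of female C57BL/6 mice aged 7 weeks and collected as immature cells on day 6. One library came from a control culture, for which no added agent or vehicle is stated in the sources used here, and 1 from a culture given 100 nM UNE-C1 for 24 h. The agent is a domain taken from cysteinyl-tRNA synthetase, known as a ligand of Toll-like receptors, and the study asked which signalling molecules it induces. Whether the cultures came from 1 mouse, several or a pool is not stated in the sources used here. Every difference below is between 2 libraries, with no replicate error, and each interval covers counting error only.

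Proteins bound for the cell surface, for secretion or for the endolysosomal system enter the ER through the Sec61 channel, lose their signal peptide, receive N-linked sugars and are folded by chaperones and disulfide isomerases, while chains that fail to fold are pulled back to the cytosol and degraded. When unfolded chains build up, the sensors IRE1 (gene Ern1), ATF6 and PERK (gene Eif2ak3) start the unfolded protein response, in which IRE1 splices Xbp1 messenger RNA and the factors XBP1 and ATF6 switch on chaperone and degradation genes. Dendritic cells rely on this machinery for cytokine secretion and for loading MHC molecules.

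Total depth was 14857198 reads (control) and 15975821 reads (UNE-C1), of which the 43 genes took 0.967% and 0.647%. Levels are in CPM, read counts scaled to library size with factors from the trimmed mean of M-values (TMM) over all genes. A log2 fold change sets UNE-C1 against control on the log2(CPM + 1) scale, and a printed fold value is the ratio of the CPM values, with an exact 95% interval. Counts of genes past 1.5-fold or 2-fold use the log2(CPM + 1) scale, which understates the change of low genes. CPM values are compared between the libraries and not between genes. Of the 8 dendritic cell and culture markers, none was at 0 reads, and 6 had a log2 fold change below 0. Of all 10469 genes with 50 or more reads in either library, 50.4% were below 0 (70.3% with total counts in place of TMM). Cd74 (2907 and 2901 CPM) and H2-Ab1 (2732 and 2594 CPM) were nearly level, while Itgax (759 and 246 CPM, 3.08-fold lower) and Csf2ra (1017 and 423 CPM, 2.40-fold lower) were past 2-fold lower, and the list summed to 8223 and 7053 CPM. Markers of other cells moved as well. The summed level of 10 neutrophil markers was 8304 CPM without and 3207 CPM with UNE-C1. All 10 were at least 2-fold lower, against 9.42% of all genes. The summed level of 6 mast cell, basophil and eosinophil markers was 1211 and 797 CPM, with all 5 past the floor below 0, against 50.4% of all genes. The 8 macrophage and monocyte markers summed to 3575 and 3819.7 CPM, a sum that hides large moves both ways: Mrc1 was 13.7-fold and Ccr2 5.33-fold lower, while Ly6c2 was 3.34-fold higher and Fcgr1 went from 33.0 to 397 CPM. Their part in the differences below was not tested, and in bulk RNA fewer cells of a type and less RNA per cell cannot be told apart. Of 9 B cell and plasma cell markers with an entry, none was at 0 in both libraries, and the list summed to 183 and 299 CPM, mostly from Sdc1, which is not specific to plasma cells. The plasma cell markers Jchain (2 and 1 reads) and Mzb1 (9 and 2 reads) were near 0 in both libraries. The 5 T and natural killer cell markers with an entry summed to 84 and 23 reads, with Cd3e at 0 in both libraries. The 4 fibroblast and stroma markers summed to 16 and 177 reads, mostly from Dcn (6 and 161 reads). The part of these lists in the differences below was not tested either.

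The 42 genes were on balance slightly lower in the UNE-C1 library, and a few stood well below the rest. Spcs3, a subunit of the signal peptidase, was 3.10-fold lower, Herpud1, a degradation adaptor, 2.54-fold lower, and Sdf2l1, a chaperone cofactor, 2.32-fold lower. The highest values were those of the disulfide isomerase P4hb, 1.71-fold higher, and of Derl2, a degradation channel protein, 1.63-fold higher. The summed level of the 42 genes was 8582 CPM in the control against 7285 CPM with UNE-C1, 1.18-fold lower (interval 1.17 to 1.19).

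With TMM and the floor of 50 reads, the set's shares past 1.5-fold and 2-fold were below those of all genes. For genes at least 1.5-fold lower the shares were nearly equal. Of the 42 genes, 3 (7.14%) were at least 2-fold lower, against 9.42% of the 10469 genes past the same floor, and none was at least 2-fold higher, against 9.31%. At a fold of 1.5, 8 genes (19.0%) were lower, against 19.3% of all genes, and 2 (4.76%) were higher, against 18.2%. With a floor of 200 reads, 19.5% of the set were at least 1.5-fold lower, against 16.3% of all genes. At that floor 7.32% were at least 2-fold lower, against 7.57%, and 4.88% at least 1.5-fold higher, against 19.6%. Below 0 stood 28 of the 42 (66.7%), against 50.4% of all genes. The median log2 fold change was -0.18, with quartiles of -0.44 and 0.14, beside a median of -0.00 and quartiles of -0.44 and 0.41 over all genes. The lower quartile of the set was thus near that of all genes, while its upper quartile was below that of all genes. The set ran from -1.58 to 0.77, and any 42 genes are likely to span less than all 10469. The counting interval of the ratio excluded 1 for 36 genes (85.7%, against 73.7% of all genes), 24 of them lower and 12 higher, and included 1 for 6. At this depth most genes pass that mark, so it says little about the set. These counts follow the scaling: with total counts in place of TMM, 36 of the 42 (85.7%) were below 0, where 70.3% of all genes were too, 17 (40.5%) were at least 1.5-fold lower, against 33.5% of all genes, and 6 (14.3%) at least 2-fold lower, against 16.2%.

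**Figure D1:**
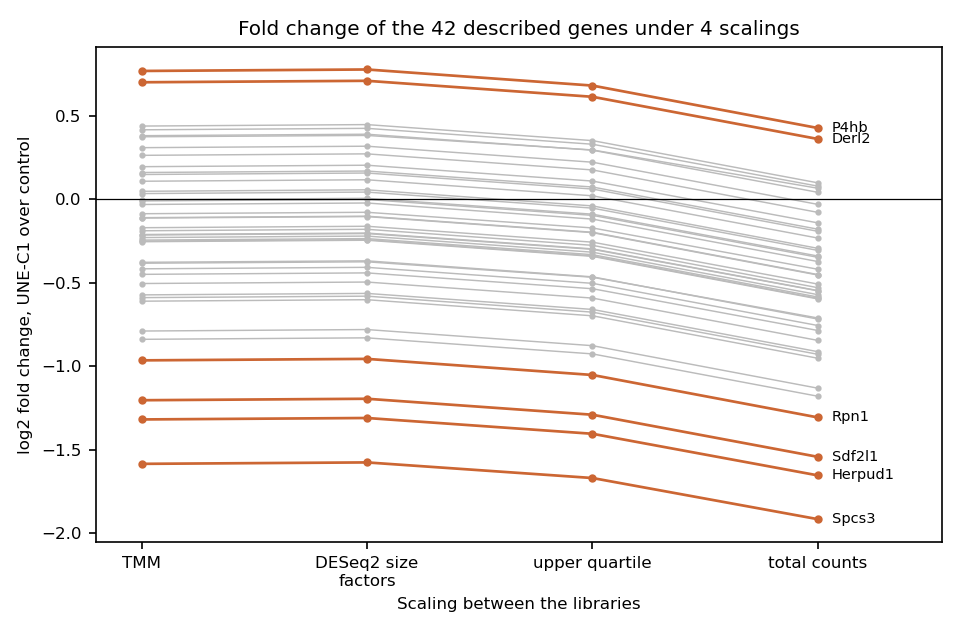
log2 fold change, UNE-C1 over control (y axis), of the 42 described genes under 4 scalings between the libraries (x axis); each line is 1 gene, and the 6 named genes are orange. The lines shift down together with total counts, by -0.34 to -0.31, and Spcs3 stays lowest and P4hb highest.

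**Figure D2:**
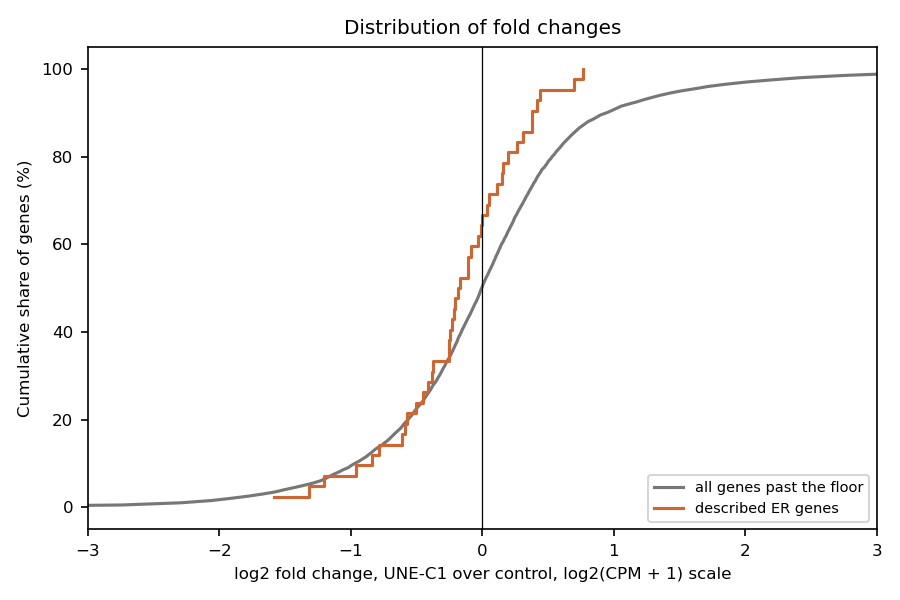
Cumulative share of genes (y axis, percent) against log2 fold change, UNE-C1 over control (x axis), for all 10469 genes past the floor (grey) and the 42 described ER genes (orange); the x axis is cut at -3 and 3. The curves nearly meet at their lower quartiles, -0.44 in both, and are apart at 0, with 66.7% of the ER genes and 50.4% of all genes below. The ER genes run from -1.58 to 0.77, and the curve of all genes goes on at both ends.

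Several of these genes are known targets of ATF6 and XBP1, which act through the ER stress response element (ERSE). Promoter windows from RefSeq on GRCm38.p6, 250 bases before to 50 bases after the annotated start, were found for 35 of the 43 genes (37 windows, 2 genes with 2 each). The ERSE was searched on both strands as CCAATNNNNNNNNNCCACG with no mismatch. It was found in the windows of 8 of the 35 genes (22.9%) and in 39 (0.119%) of all 32851 windows of that length in the table, which belong to 37 of its 27025 genes. The elements are shown because every gene that carried one was below 0. Each is given in the direction of the motif, with the fixed letters in capitals.
Calr, chr8:84847075-84847093, plus strand: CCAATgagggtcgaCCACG
Canx, chr11:50325800-50325818, minus strand: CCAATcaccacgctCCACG
Creld2, chr15:88819520-88819538, minus strand: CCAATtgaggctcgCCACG
Dnajc3, chr14:118937827-118937845, plus strand: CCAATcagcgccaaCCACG
Hsp90b1, chr10:86705638-86705656, minus strand: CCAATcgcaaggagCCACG
Hsp90b1, chr10:86705533-86705551, plus strand: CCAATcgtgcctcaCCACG
Hspa5, chr2:34772025-34772043, plus strand: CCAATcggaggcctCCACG
Pdia6, chr12:17266491-17266509, plus strand: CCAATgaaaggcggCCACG
Syvn1, chr19:6046532-6046550, plus strand: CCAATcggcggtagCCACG
Hsp90b1 held 2 exact matches, and the others 1 each. Stretches with a mismatch, such as ccaatcagcggcctccaac in the Hspa5 window, were not counted. The number of working elements per gene is therefore not known from this search. All 8 genes were below 0 in the UNE-C1 library, from -0.79 for Hsp90b1 to -0.21 for Syvn1, with a median of -0.32. Of these, only Hsp90b1 and Pdia6 (-0.61) were past 1.5-fold with TMM. With total counts Dnajc3 (-0.91), Creld2 (-0.71), Calr (-0.60) and Hspa5 (-0.59) were too, where 33.5% of all genes were at least 1.5-fold lower. Of all 8057 genes past the floor with a window, 4044 were below 0, and with total counts 70.3% of all genes past the floor were. Spcs3, the lowest of the set, had no window and is left out of this comparison. Of the 26 described genes with a window and no ERSE, 15 were below 0, with a median of -0.02 and a range of -1.32 to 0.77 (with total counts 21 of the 26 were below 0). Outside the set the directions were mixed: of the other 29 genes with an ERSE in the table, 4 passed the floor, and 2 were below 0 (Hnrnpa3 and Pan2) and 2 above (Alg12 and Ptgdr2). A match describes the letters in a window and is not evidence of binding.

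The related element ERSE-II, searched as ATTGGNCCACG, was found in 2 of the 35 genes and in 0.0365% of all windows. These genes stood on opposite sides of 0, Herpud1 at -1.32 and Dnajb11 at 0.20.
Dnajb11, chr16:22857852-22857862, plus strand: ATTGGcCCACG
Herpud1, chr8:94386377-94386387, plus strand: ATTGGgCCACG
The Herpud1 element is centred 47 bases before the annotated start and the Dnajb11 element 13 bases into the transcript. The core TGACGTGG of the unfolded protein response element was in none of the 35 genes' windows and in 0.676% of all windows. The short core CCACG, which is also the end of both elements above, was in the windows of 28 of the 35 genes and in 32.8% of all windows. Sdf2l1, among the lowest of the set, held 3 such cores and no ERSE or ERSE-II. The 250 bases before the start are shown for the chaperones Hspa5 and Hsp90b1, of which the second differed more between the libraries, and for Herpud1, with ERSE and ERSE-II in capitals. The Hspa5 window is counted from the RefSeq start, whereas the GENCODE gene begins at 34771970, inside that window.
Hspa5, chr2:34771840-34772089, plus strand: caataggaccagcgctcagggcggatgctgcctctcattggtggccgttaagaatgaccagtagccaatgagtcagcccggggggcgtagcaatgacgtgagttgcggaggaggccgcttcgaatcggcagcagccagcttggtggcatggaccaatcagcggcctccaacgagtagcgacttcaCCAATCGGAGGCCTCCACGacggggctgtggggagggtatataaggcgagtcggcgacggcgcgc
Hsp90b1, chr10:86705445-86705694, minus strand: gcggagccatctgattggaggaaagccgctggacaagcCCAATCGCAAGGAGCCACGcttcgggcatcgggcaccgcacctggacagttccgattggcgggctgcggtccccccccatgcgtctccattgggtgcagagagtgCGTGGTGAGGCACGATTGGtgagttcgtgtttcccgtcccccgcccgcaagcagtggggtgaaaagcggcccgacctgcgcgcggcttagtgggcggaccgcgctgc
Herpud1, chr8:94386179-94386428, plus strand: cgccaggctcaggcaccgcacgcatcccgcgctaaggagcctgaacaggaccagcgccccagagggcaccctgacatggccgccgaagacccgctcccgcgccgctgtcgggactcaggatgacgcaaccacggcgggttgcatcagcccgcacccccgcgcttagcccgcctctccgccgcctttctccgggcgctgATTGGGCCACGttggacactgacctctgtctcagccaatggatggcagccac

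**Figure D3:**
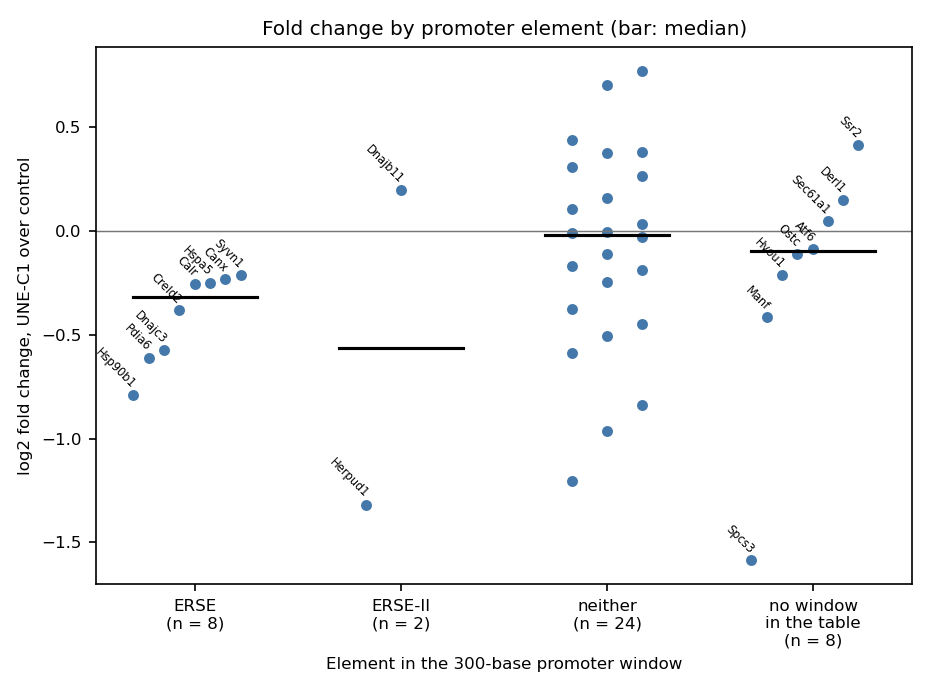
log2 fold change, UNE-C1 over control (y axis), of the 42 described genes by the element found in the promoter window (x axis); each point is a gene and each bar the median of its column. All 8 genes with an ERSE lie between -0.79 and -0.21, the 24 genes with neither element lie on both sides of 0, and 8 genes had no window in the table.

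Among the 9 luminal chaperones and their cofactors, 7 were lower and 2 higher in the UNE-C1 library, where 50.4% of all genes were lower. Dnajb11 turned lower with total counts, with which 70.3% of all genes were lower. The 9 genes had a median of -0.38 and a summed level of 2540.2 and 1852 CPM (1.37-fold lower, interval 1.35 to 1.39). Hspa5, which encodes BiP, the main Hsp70 chaperone of the ER and the partner that holds the stress sensors inactive, was at 1213 CPM (control) and 1019.6 CPM (UNE-C1), 1.19-fold lower (1.16 to 1.22). Hsp90b1, the Hsp90 chaperone of the ER that Toll-like receptors and integrins need for folding, was at 773 and 447 CPM, 1.73-fold lower (1.68 to 1.78). The difference was thus larger for Hsp90b1 than for Hspa5: there were 1.57 Hspa5 reads for each Hsp90b1 read without and 2.28 with UNE-C1. Such read ratios depend on transcript length and library type, and are compared here only between the libraries. Sdf2l1, which keeps BiP substrates soluble together with a J-domain partner, was at 149 and 64.2 CPM, 2.32-fold lower (2.15 to 2.51), rank 670 from the lowest of 10469 genes. It maps to chromosome 16, 17130138 to 17132383, minus strand (GENCODE M21, GRCm38, as for all gene positions here).

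The J-domain proteins, which deliver clients to BiP, did not move together. Dnajb11, the partner of Sdf2l1, was at 49.3 and 56.6 CPM, slightly higher with TMM, while Sdf2l1 itself was lower under every scaling tried. Dnajb9, which restrains IRE1, was at 7.71 and 10.3 CPM on few reads. Dnajc3, an inhibitor of PERK and a cochaperone, was at 153 and 103 CPM (log2 fold change -0.57, just short of 1.5-fold). The nucleotide exchange factor Hyou1, which resets BiP, was at 51.6 and 44.5 CPM. Manf, a secreted ER stress protein that binds BiP, was at 118 and 88.1 CPM, and Creld2, another ER stress-inducible secreted protein, at 25.6 and 19.4 CPM. All 3 of these were lower, by less than 1.5-fold. The exons of Manf overlap those of Rbm15b on the same strand (146 and 87 reads), which leaves the Manf count uncertain.

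The lectin chaperones, which hold glycoproteins while they fold, were lower by nearly the same factor. Calr, which encodes calreticulin, a part of the MHC class I loading complex, was at 1194 and 1001 CPM, 1.19-fold lower (1.17 to 1.22). Its membrane-bound relative Canx was at 357 and 305 CPM, a log2 fold change of -0.23 beside -0.25 for Calr.

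The disulfide isomerases diverged. P4hb, the founding protein disulfide isomerase and also a subunit of collagen prolyl hydroxylase, was at 224 CPM without and 383 CPM with UNE-C1, 1.71-fold higher (1.64 to 1.78) and the highest of the 42 genes. With total counts its log2 fold change was 0.43, under 1.5-fold. It maps to chromosome 11, 120560298 to 120573253, minus strand. Pdia6, which also regulates the IRE1 sensor, was at 352 and 231 CPM, 1.53-fold lower (1.46 to 1.60). Pdia4 was at 65.1 and 57.7 CPM, and Pdia3, which works with calreticulin and in MHC class I loading, at 289 and 282 CPM, with a counting interval that included 1. The summed level of the 4 isomerases, 930.4 and 954 CPM, hid this: the higher P4hb and the lower Pdia6 nearly cancelled, and the sum was below the control with upper-quartile factors and with total counts (ratio 0.808).

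**Figure D4:**
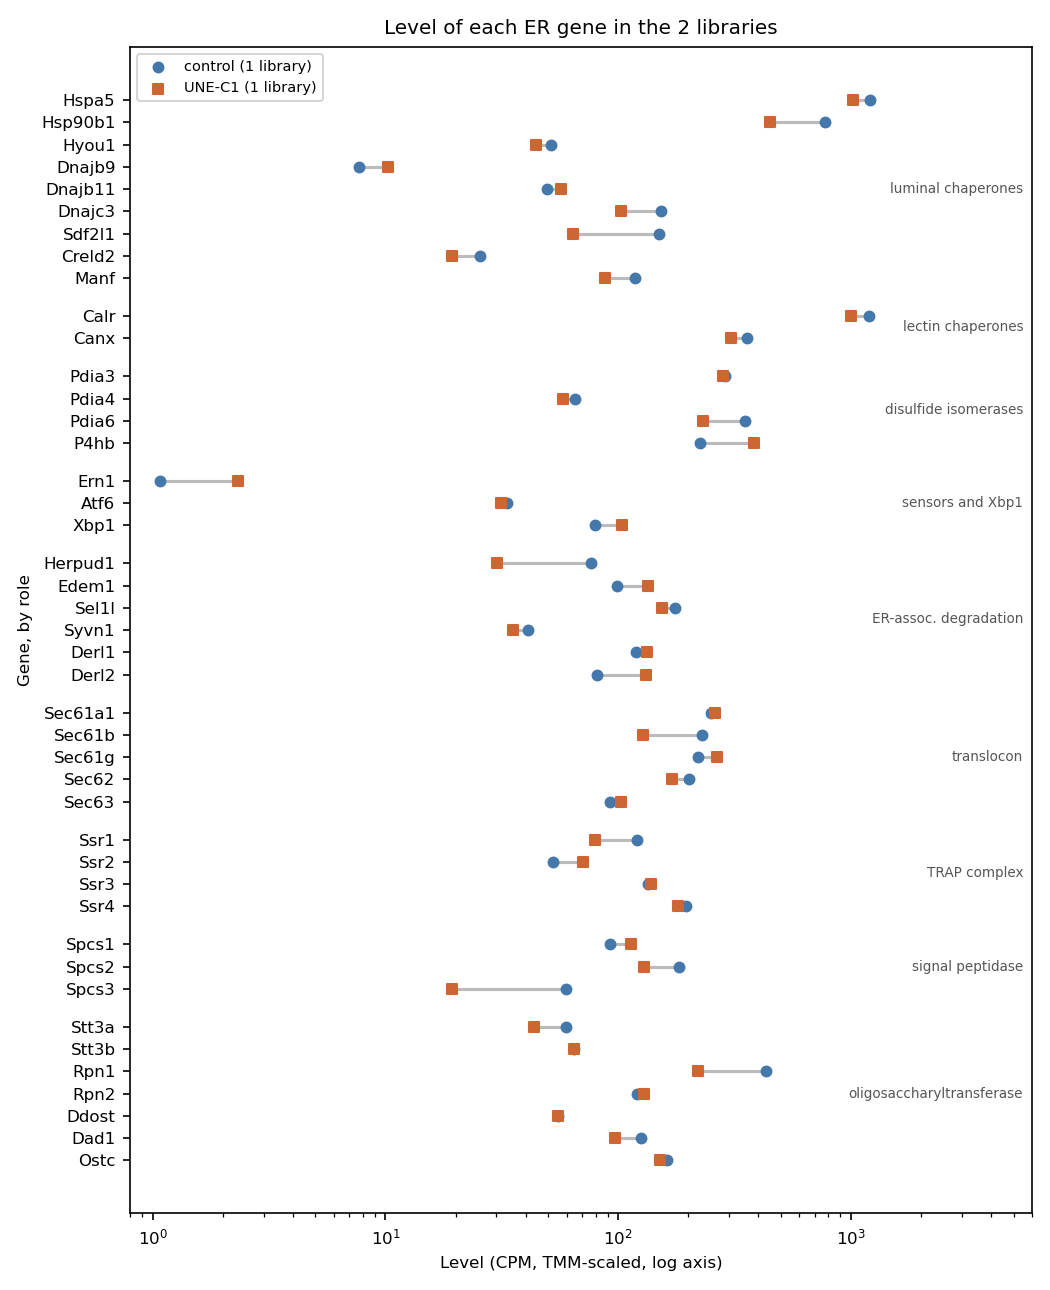
Level of each of the 43 genes (x axis, CPM, log axis) in the control library (blue circles) and the UNE-C1 library (orange squares), with genes grouped by role (y axis); each symbol is 1 library and the grey line joins the pair. The longest lines to the left are those of Spcs3, Herpud1 and Sdf2l1, and Ern1, at 1.08 and 2.33 CPM, is the gene under the floor.

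Of the sensors, Atf6 was at 33.3 and 31.3 CPM, a ratio of 0.940 with an interval that included 1 (0.828 to 1.07). Ern1 had a ratio of 2.16 (1.18 to 4.08) and is too thinly counted for a closer value. Xbp1 was at 79.6 and 104 CPM, 1.31-fold higher (1.21 to 1.41). Reads per gene do not separate the spliced from the unspliced Xbp1 transcript, so IRE1 activity cannot be read from this value.

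Of the 6 degradation genes, 3 were lower and 3 higher, and they covered almost the whole range of the set. Of all genes, 50.4% were lower. Derl1 turned lower with total counts, with which 70.3% of all genes were lower. Herpud1, which assembles the degradation complex around the ubiquitin ligase HRD1 and turns over quickly, was at 76.6 CPM without and 30.1 CPM with UNE-C1, 2.54-fold lower (2.28 to 2.84), rank 550 from the lowest of 10469 genes. It maps to chromosome 8, 94386438 to 94395377, plus strand. Derl2, a derlin that forms part of the exit channel, was at 80.9 and 132 CPM, 1.63-fold higher (1.52 to 1.75), and with total counts its log2 fold change was 0.36, under 1.5-fold. It maps to chromosome 11, 71007164 to 71019841, minus strand, and its exons overlap those of Mis12 on the other strand (193 and 204 reads).

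The remaining degradation genes moved less. Derl1, the paralogue of Derl2, was at 119.7 and 133 CPM and has a near-identical pseudogene. Edem1, a lectin that takes misfolded glycoproteins from the folding cycle and a known XBP1 target, was at 99.0 and 135 CPM, or 0.44 on the log2 scale (0.10 with total counts). Syvn1, the HRD1 ligase itself, was at 41.1 and 35.3 CPM, and its exons overlap Mrpl49 on the other strand (613 and 585 reads). Sel1l, the ligase's scaffold partner and the most counted gene of this group, was at 176 and 154 CPM, 1.14-fold lower (1.08 to 1.21). The difference was thus far larger for the adaptor Herpud1 than for the ligase and scaffold it joins.

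Among the parts of the translocon, subunits of 1 channel differed. Sec61a1, which forms the pore, was at 251 and 260.0 CPM, a ratio of 1.03 (0.989 to 1.08). The small subunit Sec61b was at 229 and 128 CPM, 1.79-fold lower (1.70 to 1.90), whereas the other small subunit, Sec61g, was at 221 and 265 CPM. For each Sec61g read there were 1.04 Sec61b reads without and 0.482 with UNE-C1. Both small subunits have near-identical copies elsewhere in the genome, 3 for Sec61b and 4 for Sec61g at 95% identity or more over at least 200 bases, none with an entry of its own under that name in the files, so their counts are uncertain. Sec62 and Sec63, which serve import after translation and BiP recruitment, were at 202 and 171 CPM and at 92.1 and 103 CPM.

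The TRAP complex, which sits beside the channel and helps some signal sequences to open it, also showed unequal subunits. Ssr1 was at 120.3 and 79.7 CPM, 1.51-fold lower (1.40 to 1.63), and Ssr2 at 52.4 and 70.3 CPM, with a log2 fold change of 0.42. Ssr3, at 135 and 138 CPM, had an interval that included 1, and Ssr4, the most counted of the 4, was at 196 and 181 CPM, 1.08-fold lower (1.03 to 1.14). Part of the annotated Ssr2 exons is shared with a near-identical stretch of 2700060E02Rik (1680 and 1520 reads), which leaves the Ssr2 count uncertain.

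The signal peptidase cuts the signal peptide from entering chains. Its accessory subunit Spcs3 had 999 control reads and 273 UNE-C1 reads, or 59.7 and 19.2 CPM, 3.10-fold lower (2.71 to 3.56), the lowest of the 42 genes and rank 358 from the lowest of 10469. It maps to chromosome 8, 54520433 to 54529998, minus strand, and the gene that overlaps its exons on the other strand, Asb5, had no reads. Spcs2 was at 183 and 129 CPM, 1.42-fold lower (1.34 to 1.51), and has a near-identical pseudogene. Spcs1 was at 91.8 and 114 CPM, with exons that overlap Glt8d1 on the other strand (305 and 347 reads). For each Spcs1 read there were 0.650 Spcs3 reads without and 0.169 with UNE-C1, so that subunits of 1 complex differed in direction with TMM, though Spcs1 was also below 0 with total counts. Of the catalytic subunits, which are not among the 43 genes, Sec11a had 1434 and 1390 reads and Sec11c 1876 and 1727 reads, with log2 fold changes of 0.19 and 0.12.

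The oligosaccharyltransferase transfers N-linked sugars to entering chains. Of its 7 measured subunits, 6 were below 0, against 50.4% of all genes. With total counts all 7 were, against 70.3% of all genes, and with DESeq2 size factors 5 were, as Ddost turned above 0. The summed level was 1020.1 and 761 CPM (1.34-fold lower, 1.31 to 1.37). Most of that difference came from Rpn1, which encodes ribophorin I, at 432 and 221 CPM and 1.96-fold lower (1.87 to 2.04). Rpn1 maps to chromosome 6, 88084482 to 88105304, plus strand. Its partner Rpn2 was at 120.1 and 129.6 CPM, and the number of Rpn1 reads per Rpn2 read went from 3.60 to 1.70. The catalytic subunits define complexes that act during (Stt3a) and after (Stt3b) translocation. Stt3a was at 59.5 and 43.3 CPM, a log2 fold change of -0.45, while Stt3b, at 64.7 and 64.3 CPM, had an interval that included 1. Dad1, a small subunit, was at 126 and 96.7 CPM, and Ostc, which joins the STT3A complex to the channel, at 163 and 151 CPM. Ddost, the scaffold, was at 55.2 and 55.1 CPM, the smallest difference of the set with TMM, though not with total counts (-0.34).

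**Figure D5:**
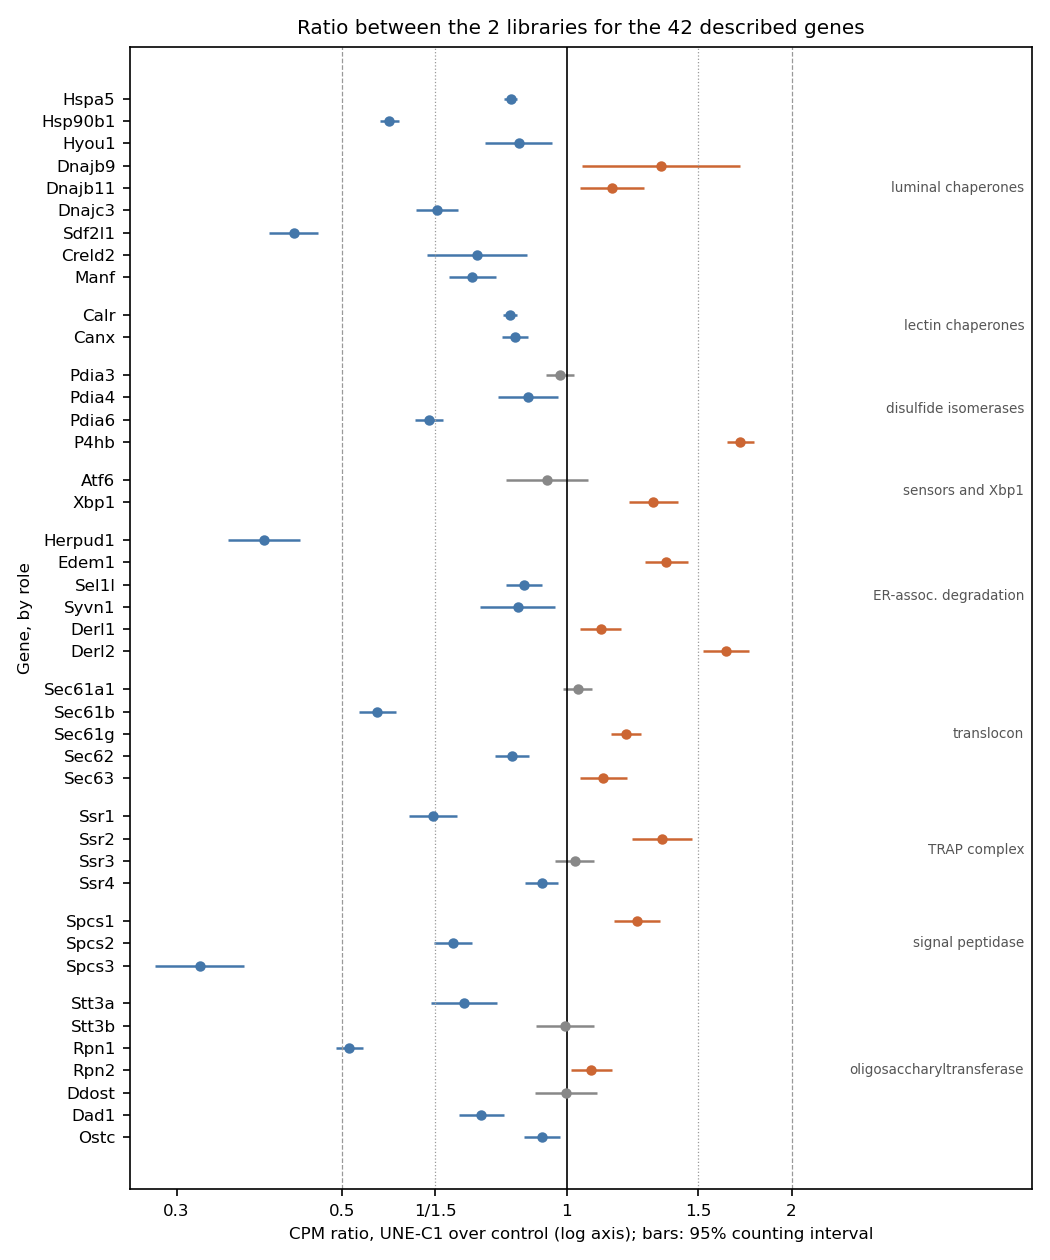
CPM ratio, UNE-C1 over control (x axis, log axis), of the 42 described genes by role (y axis); each point is 1 gene and each bar its exact 95% counting interval, blue where the interval lies below 1, orange where it lies above and grey where it includes 1. Dashed lines mark 2-fold and dotted lines 1.5-fold; Spcs3, Herpud1 and Sdf2l1 lie beyond the 2-fold line, and P4hb and Derl2 beyond the 1.5-fold line on the right.

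Other genes of the same pathway, 56 in 4 lists, had a median of -0.01 over the 52 past the floor, with 4 at least 2-fold higher (9.31% of all genes were) and 1 at least 2-fold lower (9.42% of all genes). With total counts these were 2 and 7, beside 6.28% and 16.2% of all genes. By the plain CPM ratio 4 were past 2-fold upward and 3 downward. Of 19 other folding enzymes, all past the floor, 1 was at least 2-fold higher and 1 lower on the log2(CPM + 1) scale. Ero1l, the oxidase that recharges disulfide isomerases and a hypoxia-inducible gene, was at 32.3 CPM without and 562 CPM with UNE-C1, 17.4-fold higher (16.0 to 19.0), while its paralogue Ero1lb had 226 and 95 reads. Mogs, the glucosidase that makes the first trim of the transferred sugar, was 2.11-fold lower (1.88 to 2.39), and under 2-fold on the log2 scale with a pseudocount of 5. The other 2 past 2-fold lower by the plain ratio were Ero1lb, 2.02-fold (1.58 to 2.59), and Fkbp11, an ER prolyl isomerase with 110 and 43 reads, 2.17-fold (1.51 to 3.16). None of the 11 other degradation genes and none of the 15 other targeting, translocation and glycosylation genes past the floor was changed 2-fold, with medians of 0.01 and 0.03.

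Of 7 other stress sensors and outputs past the floor, 3 were at least 2-fold higher, against 9.31% of all genes, and none lower, and all 3 belong to the PERK and ATF4 arm. Atf4, its transcription factor, was at 223 and 508 CPM, 2.28-fold higher (2.19 to 2.37). Ddit3, which encodes CHOP, was 3.74-fold higher (3.47 to 4.03), and Ppp1r15a, the phosphatase subunit that restores translation, 2.05-fold higher (1.85 to 2.26). With total counts their log2 fold changes were 0.84, 1.54 and 0.68, so that of the 3 Ddit3 alone stayed past 2-fold. Eif2ak3, the PERK sensor itself, had 245 and 107 reads and a log2 fold change of -0.87. ATF4 and CHOP can also be induced through kinases outside the ER. Of the 42 described genes of the set, none was at least 2-fold higher, against 9.31% of all genes. Above 0 were 14 and below 0 were 28, where 50.4% of all genes were below. Which arm of the unfolded protein response was active was not tested.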

How the data were processed

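Single libraries of control and UNE-C1 cells were compared. The deposited files hold raw read counts per gene symbol, a unit read from the values, since the headers give only a column number. Per the labels, 500 ng of total RNA went into a kit named QuantSeq with a catalogue number that may belong to another kit, so the library type is uncertain. Per the submitters' processing notes, Bowtie2, edgeR and mm10 were used, without versions. The sources used here do not give the counting tool, annotation, strand setting or treatment of multiply mapped reads. The 35 repeated symbols (79 of 23282 entries, no member among them) were summed.

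TMM factors (edgeR 4.0.16, R 4.3.3) came to 1.13 (control) and 0.888 (UNE-C1). Ratios have exact conditional binomial (Clopper-Pearson) 95% intervals (scipy 1.17.1), and PCR copies cannot be told from separate molecules. With 1 library per group no p-value was computed. The floor was 50 reads in either library (2.99 and 3.52 CPM). The calculation was run on simulated counts with counting error only and equal numbers of genes raised and lowered. That setting cannot judge replicate error or the scaling between libraries as unlike as these. The members and lists were chosen with earlier results of these data known. Every member is given, with an interval for those past 1.5-fold, the sensors, Xbp1 and the most counted gene of each role, and further ER genes are named where past 2-fold on the log2(CPM + 1) scale. Ero1lb, Fkbp11, Eif2ak3, the markers with printed values, Sec11a, Sec11c and the genes with an ERSE outside the set were named, and the read ratios between subunits chosen, after the values were seen. Near-identical copies were searched in GENCODE M21 transcripts with blastn (95% identity, 200 bases). Retrieval signals of the proteins, planned at the start, were not analysed here. Other scalings, pseudocounts and floors were tried as alternatives.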

Additional observations from a re-analysis of the deposited data

How the results depend on the processing

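No paired analysis was possible because each group had 1 library, and no library could be left out. Total counts had the largest effect of the alternatives. With them the median of all genes moved to -0.33 and that of the 42 ER genes to -0.52, a shift nearly common to all genes, and that of the further ER genes to -0.35. The ER genes at least 2-fold lower went from 3 to 6, those at least 1.5-fold lower from 8 to 17, those at least 1.5-fold higher from 2 to 0 and those above 0 from 14 to 6, and the summed ratio from 0.849 to 0.669. The 8 genes that turned from above to below 0 were Dnajb11, Derl1, Sec61a1, Sec61g, Sec63, Ssr3, Spcs1 and Rpn2. Spcs3 (-1.92), Herpud1 (-1.65), Sdf2l1 (-1.54), Derl2 (0.36) and P4hb (0.43) kept their direction. The further ER genes at least 2-fold higher and lower went from 4 and 1 to 2 and 7. Upper-quartile factors gave a summed ratio of 0.799. DESeq2 size factors turned the median of all genes to 0.0039, and a floor of 200 reads turned it to 0.050 and that of the further ER genes to 0.015. The further ER genes at least 2-fold lower were 3 with a pseudocount of 0.1 and 0 with 5. Leaving out Rn45s or the floor changed no count of the ER genes by more than 1.5 times. Depth limits Ern1 and Dnajb9 most.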
